A study of Homo sapiens with 12 samples.

Results

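RCC4 and UMRC2 are established human kidney cancer cell lines, both known to lack a working VHL protein. Their transcript levels were compared at baseline on 6 of the 12 arrays of the series, the 3 RCC4 and the 3 UMRC2 arrays of cells that received only ethanol, the vehicle. The members were chosen by line and treatment, as the sample labels give them, with earlier results of these data known. The gene lists below were chosen with the same knowledge, so their shares are a description. Each line had been engineered 3 times, and by the labels every derivative carries ERT2, a hormone-binding fragment of the estrogen receptor: alone in the empty vector (EV) line, or fused to FoxO1 or FoxO3 whose AKT phosphorylation sites were changed to alanine. All cells were grown in DMEM with serum and under puromycin, and were harvested after 12 h of vehicle or of 100 nM 4-hydroxytamoxifen (4OHT), the drug that moves the fusions into the nucleus. The 6 arrays of 4OHT-treated cells served to check large differences. Total RNA was hybridised to Affymetrix U133 Plus 2.0 arrays, 1 array for each derivative and treatment. The 3 derivatives of a line therefore stand as its replicates: they differ in construct, and p-values measure the spread between derivatives of a single parental line, which may be partly technical. The labels do not say whether a derivative is 1 clone or a pool.

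The VHL protein marks the hypoxia-inducible factors HIF1A and EPAS1 (HIF-2 alpha) for destruction, and in cells that lack it these factors switch on genes of angiogenesis, glucose uptake and lipid storage. Clear cell kidney cancer arises from the proximal tubule, an epithelium that keeps PAX8 and often co-expresses keratins and vimentin. Lines that share the loss of VHL can still differ in other programmes, such as the NRF2 response to electrophiles, serine synthesis, matrix production and NF-kB driven inflammation, and it is these that the gene lists below cover.

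Levels are given as log2 intensity after quantile normalisation of all 12 arrays. In each set of 3 values the order is EV, FoxO1 and FoxO3. A level of 4.20 is the floor, to which lower values were raised, so that a fold against a line whose 3 arrays all lie there is a lower bound. Differences are RCC4 minus UMRC2 on the log2 scale with the standard error from limma, and a gene counts as called at a Benjamini-Hochberg adjusted p of 0.05 over the 14283 genes tested.

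Within a line the vehicle arrays correlated at 0.974 or more in RCC4 and 0.971 or more in UMRC2 over these genes, against 0.845 to 0.850 between the lines. The median spread of a gene within a line was 0.166 (SD, log2). The scan level moved with the line. The geometric mean of the spike-in control probe sets as deposited was 4212 to 4339 on the RCC4 vehicle arrays and 2239 to 2463 on the UMRC2 vehicle arrays, and it was 2515 on the RCC4 FoxO3 array with 4OHT, next to 2299 on its UMRC2 partner. On the vehicle arrays scan level and line cannot be told apart. The FoxO3 pair with 4OHT is the 1 pair at a common scan level, and its values are given as a check with no test. In that pair 4OHT also moves the FoxO3 fusion into the nucleus in both lines. A difference that changes there can come from scan level or from the fusion, and the share of each was not tested. Quantile normalisation brought the median difference over all genes tested to 0.06. Without it, on the values as deposited, that median was 0.77 and the share of called genes higher in RCC4 was 88% in place of 53.3%. Arrays scaled to a common median gave 60% and arrays scaled to the spike-in controls 42.3%, with medians of 0.12 and -0.09. Relative to the median of all genes, the median of every gene list kept its sign under the 4 scalings (quantile, common median, spike-in, as deposited), except for glycolysis (-0.06 against 0.12 under each of the others) and distal nephron (0.02 against -0.03). Counts of genes 2-fold apart follow the scaling: on the values as deposited more collagens, growth factors, HIF targets and matrix remodelling genes (and of 8 further lists) were 2-fold higher in RCC4 than in UMRC2, the reverse of the counts below, and the interferon, antigen, mesenchymal and integrin lists were even. The epithelial (9 against 6), matricellular (8 against 6), chemokine (9 against 4) and NF-kB (7 against 5) lists still held more genes 2-fold higher in UMRC2.

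Of 14283 genes, 7344 (51.4%) were called, 3914 higher in RCC4 (27.4%) and 3430 higher in UMRC2 (24%). With a difference of at least 2-fold, 1153 were higher in RCC4 (8.07% of genes tested) and 1492 in UMRC2 (10.4%). At least 4-fold apart were 943 genes (6.6%), 346 higher in RCC4 (2.42%) and 597 in UMRC2 (4.18%). The 3 values of one line all lay above the 3 of the other for 8545 genes (59.8%).

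The large differences were seen again with 4OHT. Of the 943 genes 4-fold apart on the vehicle arrays, 940 differed in the same direction on the 4OHT arrays, 907 of them by at least 2-fold, and 698 were called there too, where 13.8% of all genes tested were called. The values of the lines did not overlap on the 4OHT arrays in that direction for 817 of them, beside 34.6% of all genes in either direction. In the FoxO3 pair at a common scan level 909 of the 943 kept the direction and 814 were at least 2-fold apart. The 4OHT samples come from the same derivatives, so they repeat the measurement and not the engineering. Of the 14283 genes 1968 were called, 691 of them 2-fold higher in RCC4 (4.84%) and 901 in UMRC2 (6.31%). The number called was 902 without the UMRC2 FoxO1 array, 914 without the RCC4 FoxO1 array and 1134 without the RCC4 EV array. The limma test of whether the line difference changed with 4OHT called 0 (0%), where 369 had an unadjusted p under 0.05. Its 5 alternatives also called 0, with 261 to 747 at that unadjusted level. On simulated data this test recovered 1% of 2-fold and 35% of 4-fold changes. The count of 0 therefore does not show that the line differences stayed the same.

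**Figure D1:**
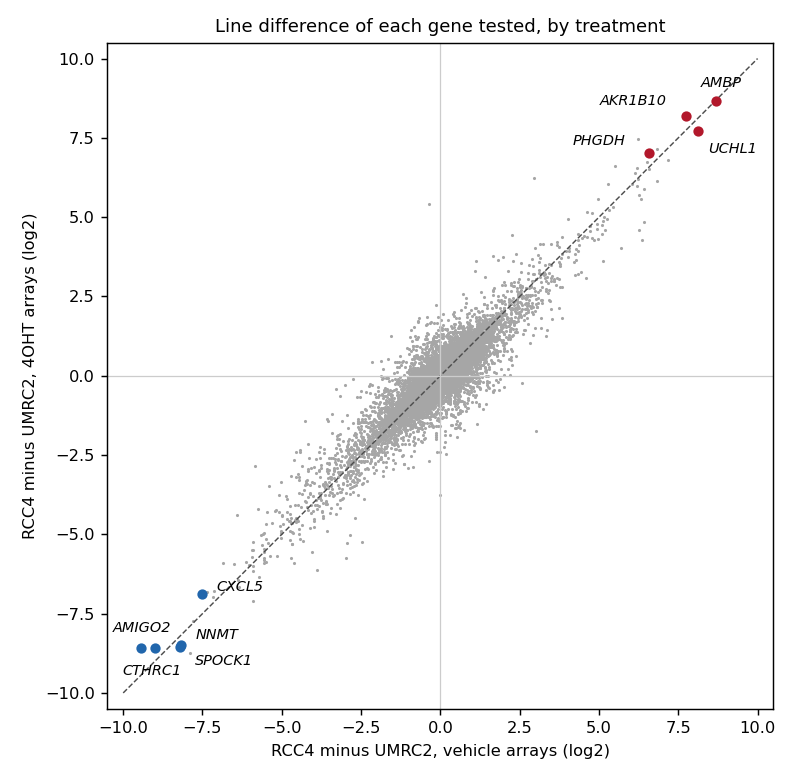
Difference between the lines (RCC4 minus UMRC2, log2) for each of the 14283 genes tested, on the vehicle arrays (x axis) and on the 4OHT arrays (y axis), each the mean of 3 arrays against the mean of 3; the dashed line marks equal differences. The 9 coloured genes, 4 higher in RCC4 and 5 higher in UMRC2, lie near that line at both ends.

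The 9 genes plotted here had been put forward as marks of the lines with the results known, and their values are a description. Those that belong to a gene list, such as AKR1B10, PHGDH and CXCL5, are also counted in its share. AMBP, which encodes the precursor of alpha-1-microglobulin and bikunin, stood at 12.81, 13.004 and 12.83 in RCC4 and at the floor on all 3 UMRC2 arrays, at least 409.9-fold apart, while its other bright probe set differed by 0.57. UCHL1, a deubiquitinating enzyme best known from neurons, stood at 14.35, 14.40 and 14.38 in RCC4 and at 6.03, 5.81 and 6.95 in UMRC2. AKR1B10, an aldo-keto reductase that detoxifies aldehydes, was at 14.67, 14.65 and 14.66 against 6.99, 6.68 and 7.07. PHGDH, the first enzyme of serine synthesis, was at 11.68, 11.77 and 11.74 against 4.20, 5.05 and 6.21. The other bright probe set of UCHL1 differed by 2.31. For these 4 the RCC4 arrays were high and close together. UMRC2 spread more widely for PHGDH, which was at the floor in its EV line alone. In the other direction AMIGO2, a neuronal-type adhesion protein, stood at 4.20, 4.41 and 4.68 in RCC4 and at 13.71, 13.90 and 13.96 in UMRC2. CTHRC1, a secreted collagen triple-helix protein, was at 4.47, 4.20 and 4.20 against 13.24, 13.35 and 13.29. SPOCK1, a testican proteoglycan, was at 4.20, 4.20 and 4.47 against 12.41, 12.72 and 12.34. NNMT, which methylates nicotinamide, was at 6.02, 5.85 and 6.08 against 14.13, 14.22 and 14.12, and the neutrophil-attracting chemokine CXCL5 was at the floor on all RCC4 arrays and at 11.69, 11.84 and 11.62 in UMRC2. The smallest gap between the lines among these genes was that of PHGDH, 6.57 ± 0.42, and the widest that of AMIGO2, -9.42 ± 0.14. With 4OHT the 9 differences ran from 7.04 for PHGDH to 8.65 for AMBP among those higher in RCC4 and from -6.89 for CXCL5 to -8.60 for AMIGO2 among those higher in UMRC2.

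**Figure D2:**
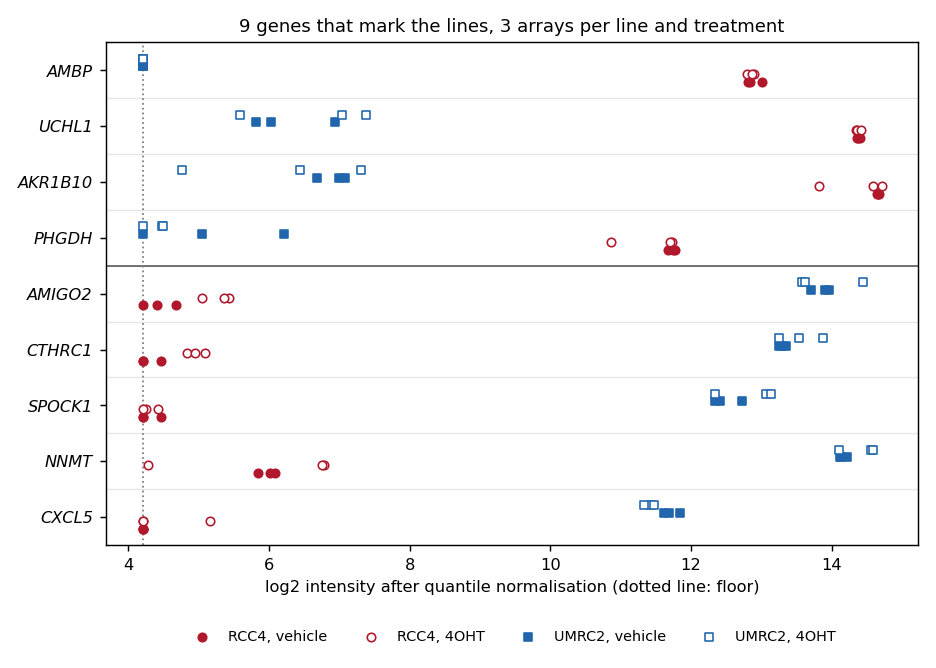
Log2 intensity (x axis) of the 9 marker genes (rows) on the 12 arrays, with RCC4 as red circles, UMRC2 as blue squares, filled for vehicle and open for 4OHT; the dotted line is the floor at 4.20. In every row the 6 red and the 6 blue points stand apart.

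Further genes past the threshold, apart on both sets of arrays and highest by difference, were CHCHD10, CPVL, MACROD2, LINC00942, GPNMB, L1CAM, PCSK5 and KCNE4 for RCC4. CHCHD10, a mitochondrial intermembrane protein, differed by 7.18 ± 0.14, and GPNMB, a transmembrane glycoprotein of melanosomes and lysosomes, by 6.53 ± 0.14 with 13.35, 13.20 and 13.06 in RCC4 and 6.95, 6.68 and 6.39 in UMRC2. PCSK5, a proprotein convertase, was at the floor on all UMRC2 arrays and at 10.71, 10.67 and 10.45 in RCC4. For UMRC2 they were CD9, EDIL3, SPINT2, PLPP2, ENPEP, RUNX2 and ACAT2. CD9, a tetraspanin of the cell surface, was at the floor on all RCC4 arrays and at 11.90, 12.25 and 12.15 in UMRC2, though a second bright probe set differed by -0.16. ENPEP, glutamyl aminopeptidase of the kidney brush border, was at 4.70, 4.20 and 4.20 against 11.59, 11.42 and 11.48. RUNX2, the transcription factor of bone formation, was at 4.95, 4.23 and 5.48 against 11.58, 11.80 and 11.88, but its other bright probe sets differed by only -2.11 to -0.52. ACAT2, a cytosolic thiolase that feeds sterol synthesis, was at 5.74, 5.69 and 4.52 against 11.88, 11.78 and 11.82.

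Kidney genes were measured in both lines. PAX8, the transcription factor that marks kidney epithelium, was at 12.54, 12.58 and 12.54 in RCC4 and 12.58, 12.41 and 12.41 in UMRC2 and was not called (adjusted p = 0.247 in limma), with other probe sets between -0.68 and 0.94; with arrays scaled to a common median it was higher in RCC4 by 0.32 (adjusted p = 0.00216). PAX2, its relative in kidney development, was higher in UMRC2 (-1.23 ± 0.13, adjusted p = 8.23e-05). CDH16, kidney-specific cadherin, was at 9.51, 9.39 and 9.09 in RCC4 and 11.17, 9.89 and 9.75 in UMRC2 (adjusted p = 0.0446). The UMRC2 EV array stood highest, and without it the difference fell from -0.94 to -0.49. The call was lost without any 1 of the RCC4 arrays (adjusted p 0.0757 to 0.128). Some markers of other cells were above the array median in both lines. Leukocyte markers had medians of 5.84 to 6.06 on the RCC4 arrays and 6.04 to 6.77 on the UMRC2 arrays, and endothelial markers of 5.10 to 5.68 and 4.86 to 5.77, against an array median of 6.67 over all probe sets. On all 6 vehicle arrays 4 of 10 leukocyte and 5 of 9 endothelial markers were below that median. Hepatocyte markers, of which 3 of 7 were below it, had medians of 6.12 to 6.71 in RCC4 and 5.41 to 5.97 in UMRC2, and muscle and erythroid markers (4 of 6 below) of 5.05 to 5.73 and 5.67 to 6.22. Of the defining genes, CD14 of monocytes and CDH5 of endothelium were at the floor on all 6 vehicle arrays, while PECAM1, an adhesion molecule of endothelium and leukocytes, was at 8.73, 8.48 and 8.72 in RCC4 and 8.35, 8.61 and 8.35 in UMRC2, and the B cell receptor component CD79A at 8.18, 8.39 and 8.43 and 7.82, 7.91 and 7.64. The markers 2-fold higher in RCC4 were ENG, the co-receptor endoglin (1.66 ± 0.37, adjusted p = 0.00542), and the apolipoprotein genes APOA1 (2.39 ± 0.80, adjusted p = 0.0353) and APOH (1.41 ± 0.40, adjusted p = 0.0181); APOH was the reverse in the FoxO3 pair at a common scan level (-0.98). The call of APOA1 was lost without any 1 array other than the RCC4 FoxO1 array (adjusted p 0.0659 to 0.141), and that of APOH without the RCC4 FoxO1, the RCC4 FoxO3 or the UMRC2 FoxO3 array (0.0572 to 0.0734). None was 2-fold higher in UMRC2 at the probe set used. For the hepatocyte marker SERPINA1 that probe set differed by 0.12, but its 2 other bright probe sets differed by -3.59 and -2.65. The part of other cells in the line differences was not tested. ESR1, of which the labels place a part in every derivative, stood at 4.67, 9.22 and 12.99 in RCC4 and 5.51, 12.59 and 13.55 in UMRC2. It was high with the fusions and low in both EV lines, which goes against their label of carrying ERT2 alone; whether the probe set covers that part was not tested. The line comparison does not use that label. VHL transcript was measured in both, at 8.67, 8.87 and 8.67 in RCC4 and 8.18, 8.32 and 7.89 in UMRC2 (0.60 ± 0.15, adjusted p = 0.00834), and with the mean of its probe sets in place of the brightest it differed by 0.09 (adjusted p = 0.727).

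Epithelial genes were more often higher in UMRC2. Of 33 epithelial junction and identity genes tested, 14 were at least 2-fold higher in UMRC2 (42.4%, beside 10.4% of all genes) and 2 in RCC4 (6.06%, beside 8.07%), and the list median was -0.73 against 0.06 over all genes. SPINT2, a membrane inhibitor of serine proteases, was at 4.20, 4.22 and 4.20 in RCC4 and 11.70, 11.54 and 11.43 in UMRC2. EPCAM, the epithelial cell adhesion molecule, was at 4.85, 4.49 and 4.81 against 10.44, 10.67 and 10.80. JUP, plakoglobin of desmosomes and adherens junctions, was at 4.53, 4.20 and 4.20 against 10.15, 10.22 and 10.30, and the mucin MUC1 at 6.57, 6.30 and 7.17 against 11.40, 11.45 and 11.46. For these 4 the lines were separated by more than 4 log2 units with no overlap on either set of arrays. The exceptions were ELF3, an epithelial ETS factor, at 10.68, 10.64 and 10.77 in RCC4 against 8.82, 8.73 and 8.53, and PATJ, a polarity scaffold, which differed by 1.52 ± 0.11 but by 0.16 at its other bright probe set. E-cadherin (CDH1) was below the filter for testing in both, at 4.87, 4.46 and 5.88 in RCC4 and 5.13, 4.20 and 4.20 in UMRC2.

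Keratins split. KRT8 and KRT18, the pair of simple epithelia, were higher in RCC4 by under 2-fold, KRT8 at 12.72, 12.77 and 12.75 against 12.08, 11.70 and 11.85 (0.87 ± 0.09, adjusted p = 6.03e-05) and KRT18 by 0.76 ± 0.05 (adjusted p = 6.26e-06). KRT19 was at the floor on all RCC4 arrays and at 10.19, 10.39 and 10.44 in UMRC2, at least 70.4-fold apart. Of 6 keratins tested, 3 were called higher in RCC4 and 2 in UMRC2.

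Mesenchymal genes leaned the same way as epithelial ones. Of 23 tested, 8 were at least 2-fold higher in UMRC2 (34.8%) and 3 in RCC4 (13%), with a median of -0.42. SNAI2, a repressor of epithelial genes, was at 4.20, 4.44 and 4.58 in RCC4 and 8.73, 8.27 and 8.49 in UMRC2. ZEB2, a factor of the same kind, was at 5.99, 6.45 and 6.31 against 8.91, 9.38 and 9.41. CD44, the hyaluronan receptor, was at 10.61, 10.76 and 10.84 against 13.92, 14.08 and 14.06, and its 9 other bright probe sets differed by -3.38 to -1.33. N-cadherin (CDH2) was at 11.51, 11.55 and 11.52 against 13.05, 13.04 and 13.10 (-1.54 ± 0.04, adjusted p = 6.72e-08). Vimentin (VIM) was among the brightest genes of both lines, at 14.23, 14.25 and 14.22 in RCC4 and 14.41, 14.25 and 14.28 in UMRC2, and was not called (adjusted p = 0.175); its difference of -0.08 turned to 0.18 with arrays scaled to a common median, and its other bright probe set differed by -1.09. Fibronectin (FN1) went the other way, at 12.58, 12.71 and 12.05 in RCC4 against 11.56, 11.12 and 11.11 (1.18 ± 0.18). UMRC2 thus held the higher level of EPCAM, KRT19 and JUP and also of SNAI2, ZEB2 and CDH2.

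Neuronal and neuroendocrine genes were more often higher in RCC4, 8 of 18 tested at least 2-fold (44.4%) against 3 in UMRC2 (16.7%). MAP2, a microtubule protein of dendrites, was at 11.25, 11.35 and 11.40 in RCC4 and 4.91, 5.01 and 5.27 in UMRC2. The adhesion protein L1CAM was at 12.13, 12.10 and 12.23 against 6.27, 6.69 and 4.20, with the FoxO3 line of UMRC2 at the floor, and its relative NRCAM at 11.34, 11.38 and 11.33 against 8.38, 7.97 and 7.74. CPE, carboxypeptidase E of hormone granules, was at 7.56, 7.92 and 7.65 against 4.20, 4.20 and 4.26. In the other direction lay SCG5, a secretory granule chaperone (-3.99 ± 0.43), and NEFM, a neurofilament subunit (-3.37 ± 0.29).

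**Figure D3:**
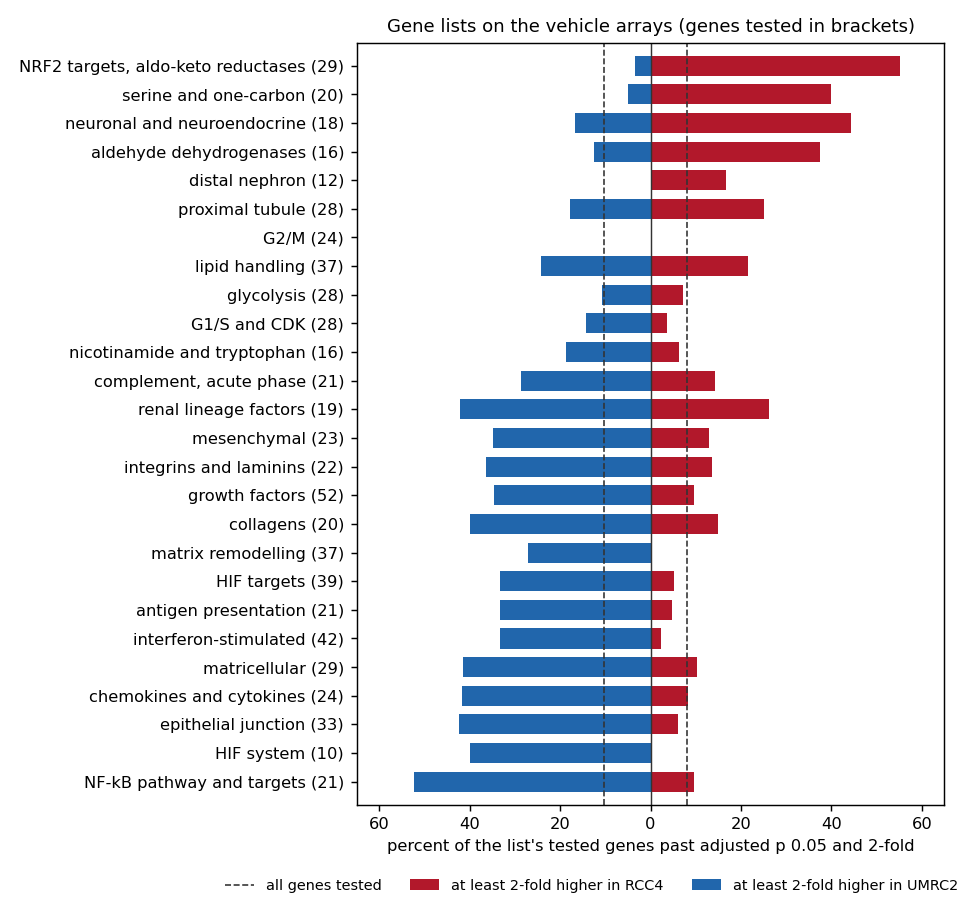
Share of each list's tested genes (number in brackets) at an adjusted p under 0.05 and at least 2-fold higher in RCC4 (red, to the right) or UMRC2 (blue, to the left) on the vehicle arrays; dashed lines mark the shares over all genes tested, 8.07% and 10.4%. NRF2 targets and aldo-keto reductases reach 55.2% for RCC4 and the NF-kB list 52.4% for UMRC2.

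Genes of the nephron gave no single order. Of 28 proximal tubule genes tested, 7 were at least 2-fold higher in RCC4 (25%) and 5 in UMRC2 (17.9%). LRP2, the endocytic receptor megalin, was at 9.14, 9.56 and 9.03 in RCC4 and 7.06, 6.95 and 7.09 in UMRC2. PDZK1, a brush border scaffold, was at 12.55, 12.42 and 12.40 against 11.15, 11.02 and 10.78 (1.47 ± 0.10). MIOX, which opens the inositol ring, was at 9.32, 9.07 and 9.29 against 7.65, 4.58 and 7.02, with the FoxO1 line of UMRC2 lowest. With no filter on dim genes its adjusted p was 0.0604. The organic cation transporter SLC22A2 went the other way, at 4.27, 4.20 and 4.20 against 7.65, 6.89 and 7.54, as did KHK, fructokinase, at 4.84, 4.84 and 4.20 against 7.80, 7.73 and 7.67. The transporter and KHK were not called on the 4OHT arrays (adjusted p = 0.0511 and 0.0774 in limma), where 3 genes of this list were 2-fold higher in RCC4 and 0 in UMRC2. Distal nephron genes were mostly dim: 13 of 25 measured were below the filter, and 2 of 12 tested, SCNN1A and AQP3, were at least 2-fold higher in RCC4.

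Factors that pattern the kidney differed in both directions. Of 19 tested, 8 were at least 2-fold higher in UMRC2 (42.1%) and 5 in RCC4 (26.3%), with a median of 0.00. EMX2, a homeobox gene of the ureteric bud, was at the floor on all RCC4 arrays and at 9.96, 9.72 and 9.43 in UMRC2. POU3F3, a factor of the loop of Henle, was at 5.74, 5.58 and 5.45 against 10.78, 10.90 and 10.75, with other probe sets at -2.75 to -0.19. HOXC10 was at 6.36, 5.89 and 6.46 against 10.90, 11.02 and 10.98, and IRX3 at 9.65, 9.75 and 9.06 against 12.09, 12.60 and 11.93. In RCC4 the higher ones included HOXD10 at 9.07, 8.78 and 8.84 against 6.15, 5.89 and 5.47, HOXD11 at 7.87, 8.07 and 7.96 against 5.42, 6.01 and 6.32, and OSR1, a factor of the early kidney field, at 7.74, 7.69 and 8.11 against 5.79, 5.94 and 4.20.

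The HIF system itself was unequal between lines that both lack VHL. EPAS1 was at 8.77, 8.82 and 8.56 in RCC4 and 12.49, 12.18 and 12.36 in UMRC2, 12.4-fold apart (-3.63 ± 0.10, adjusted p = 5.74e-08), and it remained apart in the FoxO3 pair at a common scan level (-3.69). HIF1A was at 10.998, 10.79 and 11.07 against 11.63, 12.08 and 12.11, 1.98-fold higher in UMRC2 (adjusted p = 0.000324), and on the values as deposited this was -0.18 and not called (adjusted p = 0.342). ARNT2, a partner subunit, was at the floor on all RCC4 arrays and at 7.11, 7.54 and 7.65 in UMRC2. Of 10 genes of the system tested, 4 were at least 2-fold higher in UMRC2 (40%) and 0 in RCC4.

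Among 39 HIF targets tested, 13 were at least 2-fold higher in UMRC2 (33.3%) and 2 in RCC4 (5.13%), while 11 were not called and the median was -0.21. COXFA4L2, formerly NDUFA4L2, a mitochondrial protein induced by HIF, was at 6.42, 7.12 and 6.84 in RCC4 and 12.86, 13.25 and 13.32 in UMRC2, 81.5-fold apart. ANGPTL4, an inhibitor of lipoprotein lipase, was at 6.36, 6.42 and 7.14 against 10.03, 9.33 and 9.79. The growth factor TGFA was at 10.01, 10.004 and 10.25 against 12.30, 11.999 and 12.07. Cyclin D1 (CCND1) was at 9.41, 9.53 and 9.48 against 11.39, 11.28 and 11.42, and VEGFA, the angiogenic factor, at 11.35, 11.20 and 11.16 against 12.58, 12.41 and 12.47. PFKFB3, which makes the activator of phosphofructokinase, was the reverse, at 13.11, 12.91 and 12.87 in RCC4 against 11.65, 11.58 and 11.81. With 4OHT 4 targets were 2-fold higher in UMRC2 and 1 in RCC4, and of those named here CCND1 and VEGFA overlapped between the lines. Within each construct, however, both genes stayed higher in UMRC2 with 4OHT. CCND1 stood there at 9.22, 7.62 and 6.74 in RCC4 against 11.32, 8.96 and 8.74. VEGFA stood at 11.36, 10.92 and 8.14 against 12.48, 11.48 and 9.67. CA9 was not analysed here.

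Most glycolysis genes did not separate the lines: 17 of 28 tested were not called, and 2 and 3 were at least 2-fold higher in RCC4 and UMRC2 (7.14% and 10.7%, near the shares over all genes). Glucose transporters were higher in UMRC2, SLC2A1 at 11.38, 11.32 and 11.34 against 12.90, 12.84 and 12.92 and SLC2A3 at 4.98, 4.49 and 4.75 against 8.07, 8.24 and 8.73. GPI, the isomerase of the second step, was higher in RCC4, at 13.87, 13.94 and 13.88 against 12.87, 12.90 and 12.86.

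NRF2 targets and aldo-keto reductases formed the list with the greatest share higher in RCC4. Of 29 tested, 16 were at least 2-fold higher in RCC4 (55.2%, beside 8.07% of all genes) and 1 in UMRC2, CBR3 (3.45%), with a median of 1.42. NRF2 is a transcription factor that electrophiles release from its inhibitor KEAP1 and that binds the antioxidant response element, whose core reads TGACNNNGC. NQO1, a quinone reductase, was at 14.51, 14.42 and 14.43 in RCC4 and 12.26, 12.24 and 12.22 in UMRC2. EPHX1, microsomal epoxide hydrolase, was at 13.57, 13.59 and 13.60 against 9.26, 9.22 and 9.31, and OSGIN1, a stress-induced growth inhibitor, at 10.59, 10.72 and 10.67 against 5.99, 6.87 and 6.51. TXNRD1, thioredoxin reductase, was at 14.43, 14.42 and 14.49 against 12.65, 12.94 and 12.76. GCLM, a subunit of the enzyme that starts glutathione synthesis, was under 2-fold apart, at 13.31, 13.31 and 13.32 against 12.49, 12.52 and 12.53 (adjusted p = 8.3e-07), as was ME1, malic enzyme, at 12.82, 12.86 and 12.79 against 12.06, 11.99 and 11.99 (adjusted p = 2.29e-06). AKR1C1, AKR1C2 and AKR1C3, steroid-reducing enzymes with nearly identical sequences, differed by 5.12, 6.14 and 3.40; their probe sets can hybridise to one another's transcripts, so the 3 are not separate observations. CBR3, a carbonyl reductase, was at 8.60, 8.32 and 8.62 against 9.996, 10.54 and 10.58. NQO1, TXNRD1, GCLM, ME1 and AKR1C3 are named outside the naming rule, after their values were seen. In 4OHT-treated cells 15 were 2-fold higher in RCC4 and 1 in UMRC2, and in the FoxO3 pair at a common scan level the list median was 0.94. GCLM and CBR3 overlapped between the lines with 4OHT.

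The promoter stretches of 3 genes are shown because members higher in RCC4 hold the core of the antioxidant response element there. They come from the RefSeq promoter table (GRCh38.p14, 250 bases before to 50 after a start), read on the gene's strand, with the core TGACNNNGC or its reverse complement in capitals: GCLM at chr1:93909431-93909494 (minus strand), ME1 at chr6:83431150-83431218 (minus strand) and TXNRD1 at chr12:104215650-104215718 (plus strand).
GCLM: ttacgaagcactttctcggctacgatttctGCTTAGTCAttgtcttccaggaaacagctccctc
ME1: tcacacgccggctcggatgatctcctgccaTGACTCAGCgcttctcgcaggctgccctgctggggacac
TXNRD1: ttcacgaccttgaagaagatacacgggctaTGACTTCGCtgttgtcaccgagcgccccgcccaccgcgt
The core begins 34 bases before the start in GCLM, 137 in ME1 and 99 in TXNRD1. Searched on both strands, it stood in 7 of 22 list genes with an entry (31.8%), and in 16.1% of all genes with an entry and 13.3% of all promoters of that length. The list was drawn up with targets of NRF2, and a match is a description. Whether list genes with the core differed more between the lines than those without was not tested. The entry of NQO1 lacks the core, which says only that these letters are not in that window.

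Serine and one-carbon genes were also more often higher in RCC4, 8 of 20 tested at least 2-fold (40%) against 1 in UMRC2, the glycine cleavage enzyme GLDC (5%). With 4OHT these counts were 7 and 0. Apart from PHGDH they included CBS and CTH, the enzymes that turn homocysteine into cysteine, CBS at 9.94, 9.98 and 9.77 in RCC4 against 7.18, 6.69 and 6.95 and CTH at 9.27, 8.84 and 8.89 against 7.22, 6.81 and 6.98. ALDH1L1 and ALDH1L2, the cytosolic and mitochondrial enzymes that oxidise formyl-tetrahydrofolate, were at 9.71, 9.67 and 9.62 against 6.08, 6.56 and 6.19 and at 9.28, 9.22 and 9.22 against 4.95, 4.20 and 4.20. The other bright probe set of ALDH1L1 differed by 0.65. Both also count among the aldehyde dehydrogenases, of which 6 of 16 tested were at least 2-fold higher in RCC4 (37.5%) and 2 in UMRC2 (12.5%). ALDH1A1, which makes retinoic acid, was at 13.85, 13.92 and 13.87 in RCC4 against 11.12, 10.99 and 10.49, and its relative ALDH1A3 was the reverse, at 4.69, 5.77 and 4.20 against 7.66, 7.65 and 7.36.

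**Figure D4:**
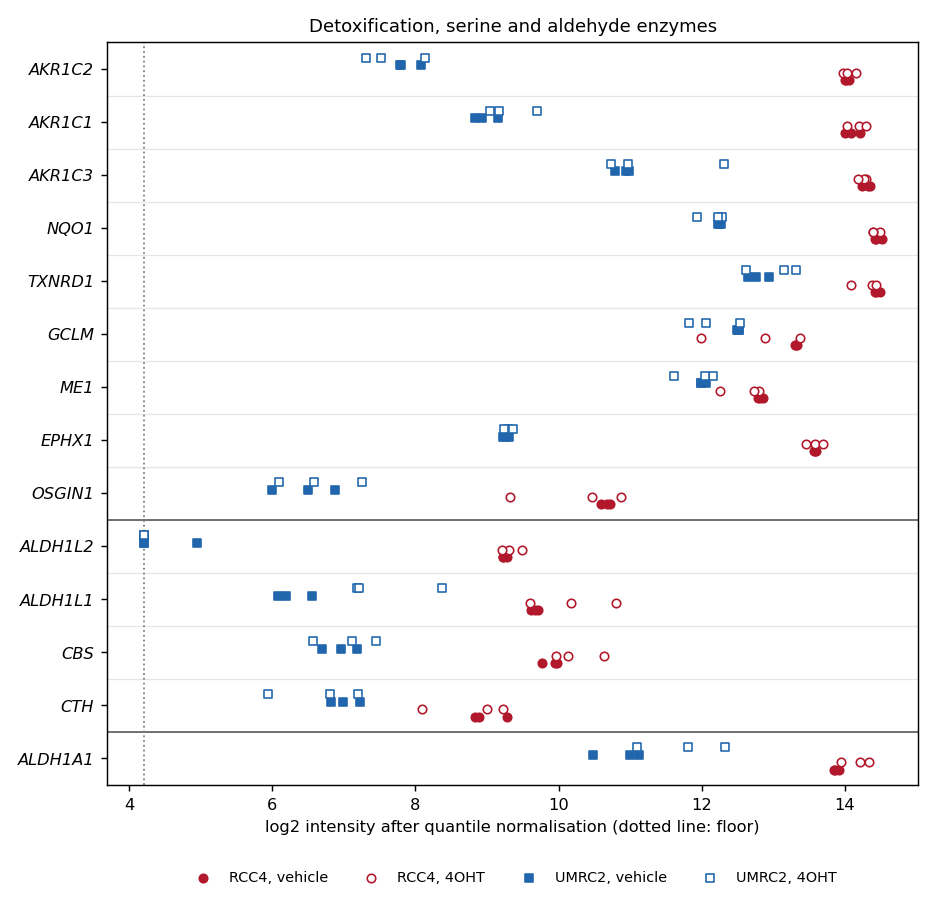
Log2 intensity (x axis) on the 12 arrays of 9 NRF2 targets and aldo-keto reductases, 4 serine and one-carbon genes and ALDH1A1 (rows), with RCC4 as red circles, UMRC2 as blue squares, filled for vehicle and open for 4OHT; the dotted line is the floor. On the vehicle arrays the red points lie above the blue ones in all 14 rows.

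Of 16 nicotinamide and tryptophan genes tested, NNMT included, 7 were not called, 1 was at least 2-fold higher in RCC4 and 3 in UMRC2 (18.8%). KMO, kynurenine hydroxylase, was at 6.43, 6.09 and 5.91 in RCC4 against 8.09, 8.03 and 7.92. Lipid genes went both ways, 8 of 37 tested at least 2-fold higher in RCC4 (21.6%) and 9 in UMRC2 (24.3%). Lipoprotein lipase (LPL) was at 9.10, 9.24 and 9.20 in RCC4 against 5.96, 6.53 and 6.52, but only 0.23 apart in the FoxO3 pair at a common scan level, and the adipogenic receptor PPARG at 10.08, 9.99 and 10.09 against 8.58, 8.45 and 8.50. Higher in UMRC2 were the bile acid carrier FABP6, at 7.21, 7.70 and 7.77 against 11.46, 11.58 and 11.65, and PPARD, at 7.92, 7.62 and 6.56 against 10.59, 10.06 and 10.05.

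Matrix genes were more often higher in UMRC2 in each of the 4 lists. Of 20 collagens tested, 8 were at least 2-fold higher in UMRC2 (40%) and 3 in RCC4 (15%). COL4A1, a chain of basement membrane collagen, was bright in both, at 12.003, 11.97 and 12.02 in RCC4 and 13.87, 13.68 and 13.72 in UMRC2, and COL13A1, a transmembrane collagen, was at 4.20, 4.84 and 4.96 against 9.002, 9.07 and 9.54. COL8A1, a short-chain collagen, was at 4.30, 4.20 and 4.20 against 7.23, 7.62 and 7.73. COL4A4, a chain of the mature glomerular basement membrane, was the reverse, at 8.26, 8.22 and 8.04 against 6.82, 6.79 and 6.34.

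Of 29 matricellular and fibre genes, 12 were at least 2-fold higher in UMRC2 (41.4%) and 3 in RCC4 (10.3%). Beside CTHRC1 and SPOCK1, thrombospondin (THBS1) was at 9.73, 10.09 and 10.22 in RCC4 against 13.45, 13.66 and 13.67. EFEMP2, a fibulin needed for elastic fibres, was at 7.63, 7.93 and 7.26 against 10.26, 10.34 and 10.08, and ECM1 at 8.22, 8.06 and 7.97 against 10.46, 10.73 and 10.54. Fibrillin 2 (FBN2), a microfibril protein, was the reverse, at 9.50, 9.77 and 9.50 against 5.61, 4.20 and 5.96.

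Of 37 genes that cut or cross-link matrix, 10 were at least 2-fold higher in UMRC2 (27%) and 0 in RCC4. LOXL1, which cross-links elastin, was at the floor on all RCC4 arrays and at 9.05, 8.45 and 8.82 in UMRC2. Urokinase (PLAU) was at 7.89, 8.17 and 8.23 against 11.14, 11.82 and 11.93 and its receptor PLAUR at 8.76, 8.59 and 8.68 against 10.91, 11.25 and 11.21. The collagenase MMP1 was at 4.84, 4.20 and 4.64 against 8.76, 7.69 and 8.92. Cathepsin L (CTSL) was higher in RCC4 by under 2-fold (0.97 ± 0.13, adjusted p = 0.000361).

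Of 22 integrins and laminins, 8 were at least 2-fold higher in UMRC2 (36.4%) and 3 in RCC4 (13.6%). The laminin chains divided: LAMA5, the alpha chain of mature kidney basement membrane, was at 10.44, 10.98 and 10.60 in RCC4 against 8.53, 7.92 and 7.53 and LAMA1 at 8.98, 9.28 and 9.18 against 7.36, 7.88 and 7.61, while LAMB3, a beta chain of epithelial hemidesmosomes, was at 4.85, 6.49 and 5.79 against 10.05, 9.48 and 9.96. The integrin subunits ITGB3, ITGB5 and ITGB8, which pair with the alpha V chain, were all higher in UMRC2, with differences of -2.27 ± 0.07, -1.93 ± 0.07 and -3.81 ± 0.15. The alpha V chain itself was called higher in RCC4 by under 2-fold (0.54 ± 0.07, adjusted p = 0.000174 in limma). With 4OHT neither that chain nor ITGB8 was called (adjusted p = 0.286 and 0.0533 in limma). Within each construct the alpha V chain stayed higher in RCC4 there, at 12.59, 13.15 and 13.72 against 11.72, 12.62 and 12.98.

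Secreted growth factors followed the matrix genes, with 18 of 52 tested at least 2-fold higher in UMRC2 (34.6%) and 5 in RCC4 (9.62%). INHBA, the activin A subunit, was at 4.20, 4.89 and 4.55 in RCC4 against 8.31, 9.69 and 9.53. Endothelin 1 (EDN1), a vasoconstrictor peptide, was at 6.53, 6.34 and 6.37 against 10.33, 11.21 and 10.76. VEGFC, the lymphatic growth factor, was at 6.49, 6.44 and 4.58 against 9.29, 9.33 and 9.65. In RCC4 the higher ones were led by IGFBP2, an insulin-like growth factor binding protein, at 9.49, 9.68 and 9.45 against 4.20, 5.68 and 4.20, and PDGFB was at 8.47, 8.14 and 8.48 against 6.10, 6.07 and 6.34. NTN4, a netrin, was at 9.47, 9.37 and 9.48 against 6.16, 5.997 and 4.64 but was not called with 4OHT (1.83 ± 1.19, adjusted p = 0.363 in limma).

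Complement genes were more often higher in UMRC2. Of 21 complement and acute phase genes tested, 6 were at least 2-fold higher in UMRC2 (28.6%) and 3 in RCC4 (14.3%), AMBP being 1 of the latter. C3, the central component, was at 4.93, 4.87 and 4.20 in RCC4 and 11.05, 11.09 and 11.03 in UMRC2, 83.5-fold apart. SERPING1, the inhibitor of C1, was at the floor on all RCC4 arrays and at 9.70, 9.75 and 9.85 in UMRC2. C1R, a protease of the classical pathway, was at 5.97, 6.55 and 6.69 against 9.29, 9.01 and 9.21, and CFB, factor B of the alternative pathway, at 5.80, 5.79 and 4.67 against 8.66, 8.31 and 8.41.

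Inflammatory genes were more often higher in UMRC2. NF-kB is a dimeric transcription factor, held in the cytoplasm by NFKBIA, that binds sites of the form GGNNNTTCC in promoters of chemokines, cytokines and adhesion molecules. Of 21 genes of this pathway and its targets, 11 were at least 2-fold higher in UMRC2 (52.4%) and 2 in RCC4 (9.52%), with a median of -1.12. Of 24 chemokines and cytokines tested, 10 were at least 2-fold higher in UMRC2 (41.7%) and 2 in RCC4 (8.33%), with a median of -0.77. On the 4OHT arrays 11 of the latter were 2-fold higher in UMRC2 and 1 in RCC4, and the list median was -1.43 in the FoxO3 pair at a common scan level.

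Promoter stretches of 6 members higher in UMRC2 are shown for the element they hold in common. They are from the same table, on the gene's strand, with matches to GGNNNTTCC or its reverse complement in capitals: CXCL1 at chr4:73869275-73869353 (plus strand), CXCL5 at chr4:73998729-73998807 (minus strand), CXCL6 at chr4:73836549-73836627 (plus strand), CXCL8 at chr4:73740438-73740516 (plus strand), IL6 at chr7:22727088-22727166 (plus strand) and VCAM1 at chr1:100719640-100719718 (plus strand).
CXCL1: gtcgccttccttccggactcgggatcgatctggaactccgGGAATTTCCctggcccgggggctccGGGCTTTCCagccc
CXCL5: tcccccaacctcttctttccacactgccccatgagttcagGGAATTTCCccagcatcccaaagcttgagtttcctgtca
CXCL6: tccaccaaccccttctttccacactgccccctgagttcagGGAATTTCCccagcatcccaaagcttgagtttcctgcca
CXCL8: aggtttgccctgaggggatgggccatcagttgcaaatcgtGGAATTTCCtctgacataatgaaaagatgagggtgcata
IL6: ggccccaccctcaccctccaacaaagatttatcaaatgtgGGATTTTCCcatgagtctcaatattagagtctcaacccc
VCAM1: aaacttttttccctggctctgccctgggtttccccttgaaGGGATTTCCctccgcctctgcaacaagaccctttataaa
The 4 chemokine genes share the letters GGAATTTCC, which begin 78 bases before the start in CXCL1, 90 in CXCL5, 89 in CXCL6 and 91 in CXCL8. On both strands GGAATTTCC stood in 9 of 29 chemokine and cytokine genes with an entry (31%) and in 5 of 18 of the NF-kB list (27.8%), and in 0.56% of all genes with an entry and 0.461% of all promoters. The broader GGNNNTTCC, which includes it, stood in 14 of 29 (48.3%) and 14 of 18 (77.8%), beside 23.5% of all genes with an entry and 20.1% of all promoters. The element was not confined to members higher in UMRC2. The 4 genes of the NF-kB list called higher in RCC4 all hold GGNNNTTCC, among them NFKBIA, which also holds GGAATTTCC. The NF-kB list was drawn up as targets of this factor, and a match is a description.

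The chemokines that attract neutrophils were higher in UMRC2. CXCL1 was at 4.90, 4.91 and 4.20 in RCC4 and 8.51, 9.004 and 8.60 in UMRC2 (-4.03 ± 0.29, adjusted p = 8.55e-06). CXCL6, named for its promoter after the values were seen, was at 5.17, 5.27 and 4.20 against 6.87, 7.09 and 7.35. CXCL8 varied most within UMRC2, at 6.95, 5.78 and 6.75 against 8.07, 10.49 and 9.43, yet the lines did not overlap (-2.84 ± 0.57, adjusted p = 0.00296). CXCL1, CXCL2 and CXCL3 are close copies, and CXCL2 and CXCL3 were below the filter, so the probe set of CXCL1 may read more than 1 of them. The cytokine IL6 was at 6.33, 6.54 and 6.53 in RCC4 and 8.91, 9.33 and 8.82 in UMRC2, and LIF, of the same family, at 7.87, 7.57 and 8.18 against 11.03, 10.59 and 10.53. In RCC4 the alarmin IL1A was higher, at 7.56, 7.31 and 7.48 against 6.16, 5.86 and 6.34, as was CXCL12, a chemokine of stem cell niches, at 9.14, 9.05 and 8.56 against 7.53, 7.58 and 7.70.

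Among NF-kB targets VCAM1, an adhesion molecule for leukocytes, was at 5.09, 5.48 and 5.15 in RCC4 and 11.20, 11.38 and 10.85 in UMRC2, 59.7-fold apart. TNFAIP6, a hyaluronan-binding protein, was at 10.06, 9.90 and 10.22 against 13.18, 13.44 and 13.36, and IER3, an early response gene, at 8.66, 8.99 and 8.99 against 11.41, 11.80 and 11.48. PTGS2, cyclooxygenase 2, was at the floor on all RCC4 arrays and at 6.77, 6.65 and 6.44 in UMRC2. The inhibitor NFKBIA was the reverse, at 11.68, 11.64 and 11.76 in RCC4 against 10.58, 10.48 and 10.60 (1.14 ± 0.06, adjusted p = 2.06e-06). NFKBIA was not called with 4OHT (0.93 ± 0.34, adjusted p = 0.128 in limma), and none of this list was called at 2-fold higher in RCC4 there, against 6 in UMRC2. On those arrays CXCL8 stood at 8.11, 12.10 and 12.92 in UMRC2 and at 6.40, 5.23 and 6.46 in RCC4, and VCAM1 at 11.06, 13.99 and 13.54 against 5.96, 5.68 and 5.68. In UMRC2 the FoxO1 and FoxO3 lines were thus above the EV line for both genes, as the plot of inflammatory genes shows.

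**Figure D5:**
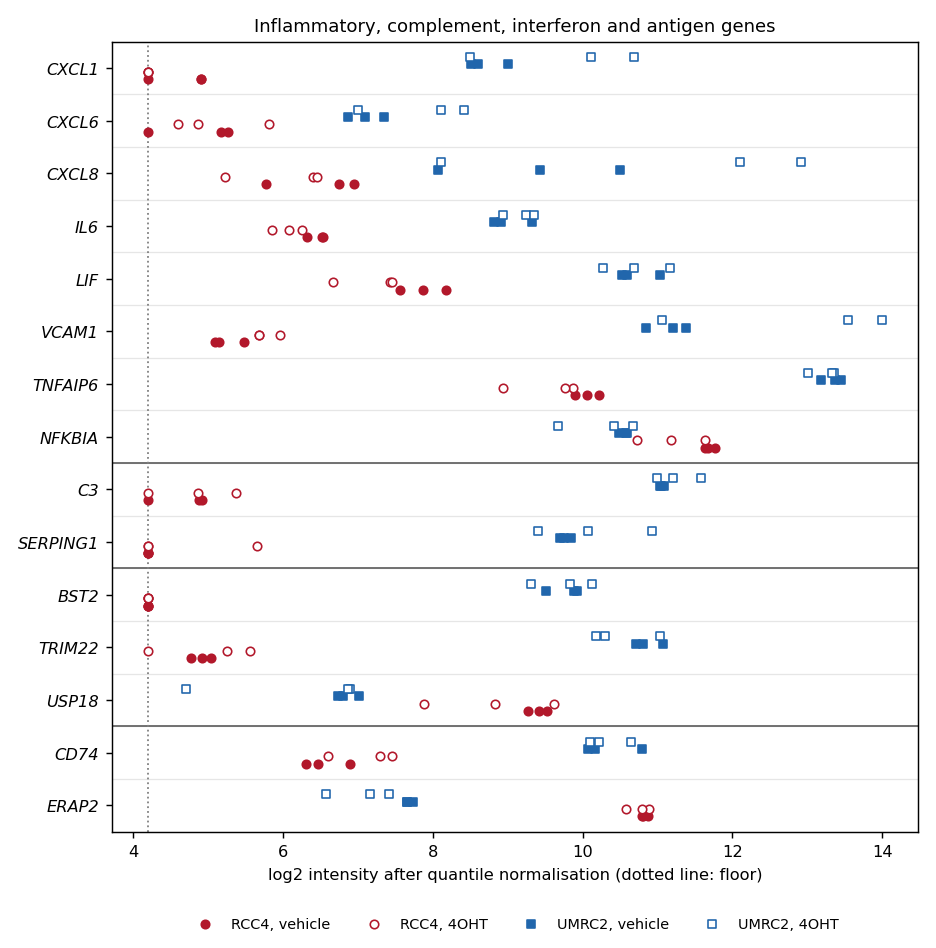
Log2 intensity (x axis) on the 12 arrays of 8 chemokine, cytokine and NF-kB genes, 2 complement genes, 3 interferon-stimulated genes and 2 antigen presentation genes (rows), with RCC4 as red circles, UMRC2 as blue squares, filled for vehicle and open for 4OHT; the dotted line is the floor. Blue points lie to the right in all rows but NFKBIA, USP18 and ERAP2.

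Interferon-stimulated genes leaned the same way, with 14 of 42 tested at least 2-fold higher in UMRC2 (33.3%), 1 in RCC4 (2.38%) and 15 not called. BST2, tetherin, was at the floor on all RCC4 arrays and at 9.88, 9.92 and 9.51 in UMRC2. TRIM22, an antiviral ubiquitin ligase, was at 4.92, 5.04 and 4.77 against 11.08, 10.71 and 10.80, and GBP1, a guanylate-binding protein, at 6.45, 7.03 and 6.86 against 10.16, 10.08 and 9.63. IFITM3, a membrane protein that blocks virus entry, was at 10.02, 10.08 and 10.44 against 12.63, 12.36 and 12.54. The exception was USP18, which removes a ubiquitin-like tag from proteins, at 9.42, 9.53 and 9.28 in RCC4 against 7.02, 6.73 and 6.81.

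Of 21 antigen presentation genes tested, 7 were at least 2-fold higher in UMRC2 (33.3%) and 1 in RCC4 (4.76%). CD74, the invariant chain of class II, was at 6.47, 6.90 and 6.31 in RCC4 and 10.79, 10.17 and 10.07 in UMRC2, and HLA-DMA, which loads class II, at 7.22, 6.91 and 6.81 against 9.38, 9.20 and 9.27. HLA-B of class I was bright in both, at 12.55, 12.68 and 12.65 against 14.000, 14.10 and 14.06; HLA genes are close copies of one another, so their probe sets are not separate observations. ERAP2, a peptidase that trims peptides for class I, was the reverse, at 10.80, 10.88 and 10.80 in RCC4 against 7.66, 7.66 and 7.74 (3.14 ± 0.09, adjusted p = 6.04e-08).

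Genes of mitosis differed by less than 2-fold. Of 24 G2/M genes, 14 were called higher in RCC4 (beside 27.4% of all genes) and 1 in UMRC2, but 0 reached 2-fold. CCNB2, a mitotic cyclin, was at 12.35, 12.28 and 12.42 in RCC4 and 11.58, 11.34 and 11.54 in UMRC2 (0.86 ± 0.07), but the mean of its probe sets differed by 0.21 and was not called (adjusted p = 0.184). TOP2A, the topoisomerase of dividing cells, differed by 0.56 ± 0.04. Of 28 G1/S and CDK genes tested, 4 were at least 2-fold higher in UMRC2 (14.3%) and 1 in RCC4 (3.57%), with 12 not called. The shares over all genes were 10.4% and 8.07%. The D cyclins went in opposite directions: CCND2 was at 11.22, 11.15 and 10.92 in RCC4 against 7.84, 7.42 and 6.85, whereas CCND1 was higher in UMRC2, as given among the HIF targets. The inhibitor CDKN1A (p21) was at 9.40, 9.06 and 9.07 in RCC4 against 11.71, 11.57 and 11.55 (-2.43 ± 0.11), and CDKN2A did not pass the test, at 7.97, 8.03 and 8.01 in RCC4 and 7.86, 7.51 and 7.68 in UMRC2 (adjusted p = 0.117). Of 11 tested genes recurrently mutated or lost in kidney cancer, 2 were at least 2-fold higher in RCC4 (18.2%, beside 8.07%). These were the chromatin regulators PBRM1 and KDM5C, and 0 were 2-fold higher in UMRC2. PBRM1 was at 9.42, 9.57 and 9.38 against 7.94, 7.29 and 7.77 and KDM5C at 10.12, 10.16 and 10.15 against 9.19, 9.01 and 8.998. The other bright probe sets of PBRM1 differed by 0.46 to 3.41 and that of KDM5C by 0.39.

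Of the 158 tested genes named by symbol above, SERPINA1 not counted, 153 were called on the vehicle arrays, beside 51.4% of all genes tested. Most were named because they were called there, so that count follows from the naming rule. On the 4OHT arrays 153 of the 153 had the same direction and 119 were called, beside 13.8% of all genes tested. The genes with the largest differences were also picked for standing apart in the same direction on those arrays. These counts describe the genes named and are no check. The direction was also the same for 152 of the 153 in the FoxO3 pair at a common scan level. There the differences were no longer 2-fold in the same direction for 16 of the 142 genes that were 2-fold apart on the vehicle arrays, such as KMO (-0.22), LPL (0.23), NTN4 (0.63), SCNN1A (0.69), LRP2 (0.71), CXCL12 (0.29), PDGFB (0.41), SLC2A1 (-0.43) and IRX3 (-0.86). COL4A1 (-3.08) and PAX2 (-2.87) were further apart there than on the vehicle arrays. Whether scan level or the nuclear FoxO3 fusion changed these differences was not tested. For 17 of the called genes another bright probe set gave a difference smaller by over 2 log2 units. Beside those given above these were AKR1C1 (1.81), MACROD2 (0.67), EDN1 (-0.67), CCND2 (1.54), COL13A1 (-1.50), ITGB8 (-1.62), EDIL3 (-3.27), NNMT (-3.05), CXCL5 (-5.18), L1CAM (4.18) and MAP2 (3.16).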

How the data were processed

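RNA of 12 samples of 2 kidney cancer lines was measured on Affymetrix U133 Plus 2.0 arrays, and the 6 vehicle samples were compared by line. The authors deposited linear intensity values made with MAS5, per the submitters' processing notes, with no version or scaling target given in the sources used here. The deposited intensity values differ in level between arrays (medians 71.1 to 138.7), so all 12 arrays were quantile normalised, values under the pooled 20th percentile (18.4) were raised to it, and the log2 of the deposited intensity was taken. Each gene was represented by its probe set with the highest mean. Of 54675 probe sets 62 were controls, 41091 had 1 symbol, 1801 had several and 11721 had none; genes were named only from probe sets with 1 symbol. Genes at or above the array median on at least 2 of 12 arrays were tested (14283 of 19775). Lines were compared within each treatment with limma 3.58.1 (R 4.3.3; lmFit and eBayes with a trend, 4 residual and 4.22 prior degrees of freedom) and Benjamini-Hochberg adjustment. An array gives no count, so precision rests on the 3 arrays per line. Tested on simulated data with 100 genes changed at each size, the vehicle comparison recovered 66% of 2-fold and 85% of 4-fold changes, and the 4OHT comparison 4% and 49%. The test of whether the line difference changed with 4OHT recovered 1% and 35%. Only 200 of 14283 genes were changed there, whereas 51.4% were called on the vehicle arrays. The adjusted threshold depends on that share, so these rates need not hold for the data.

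The members and gene lists were chosen with earlier results of these data known. Genes named are the 12 with the largest difference per line that were apart on both sets of arrays and, in the higher line, above the median on all its vehicle arrays, up to 5 per list and direction, the 9 markers and a fixed set. Others (CDH16, SERPINA1, NQO1, TXNRD1, GCLM, ME1, AKR1C3, CXCL2, CXCL3, CXCL6, the further HOX genes and KRABD1-AS1) were named outside this rule, after their values were seen. Alternatives covered scaling, floor, filter, probe set choice, variance prior, the construct as a block and leaving out each array. The construct numbers are shared between lines, but deviations from the line means correlated at 0.04, -0.02 and 0.00 over genes for the 3 constructs, so no pairing was assumed. On the 4OHT arrays the construct as a block gave 4676 genes called in place of 1968, so there the choice mattered. Promoter stretches are from RefSeq (GRCh38.p14).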

Additional observations from a re-analysis of the deposited data

Results flagged for a closer look

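KRABD1-AS1, an antisense RNA gene, was the 1 gene 4-fold apart on the vehicle arrays whose lines were apart in opposite directions, with no overlap on either set of arrays, under vehicle and under 4OHT. On the vehicle arrays it stood at 7.45, 6.997 and 7.59 in RCC4 and 4.20, 4.62 and 4.20 in UMRC2, a difference of 3.0 ± 0.36. On the 4OHT arrays it stood at 4.24, 4.20 and 5.99 in RCC4 and 6.38, 6.55 and 6.75 in UMRC2, a difference of -1.75 ± 0.59. The limma test of the difference between these differences gave an unadjusted p of 0.000126 and an adjusted p of 0.99995 over all genes tested, so it does not pass. The gene was picked from all genes tested after its values were seen.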

How the results depend on the processing

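On the vehicle arrays, values as deposited gave 9365 genes called higher in RCC4 and 1275 in UMRC2, and 4809 and 772 at 2-fold. Other settings kept these counts within 1.5 times; leaving out 1 array gave 6581 to 7172 called (3387 to 3834 higher in RCC4, 3094 to 3338 in UMRC2), 1080 to 1191 and 1451 to 1508 at 2-fold, and 934 to 964 at 4-fold. On the 4OHT arrays, values as deposited gave 487 called higher in UMRC2 and 1329 and 487 at 2-fold, and spike-in scaling 546 called higher in RCC4. Leaving out 1 4OHT array gave 902 to 1985 called (327 to 925 higher in RCC4, 520 to 1060 in UMRC2), 320 to 766 and 513 to 965 at 2-fold, and 529 to 804 at 4-fold. The construct as a replicate block gave 7176 called on the vehicle arrays, in place of 7344. On the 4OHT arrays it gave 4676 (2385 and 2291), in place of 1968, and the cause was not tested. The difference of VIM reversed to 0.18 with a common median and to 0.82 as deposited, and that of ESR1, -1.59, ranged from -4.11 to 0.56 when 1 array was left out, above 0 only without the RCC4 EV array. In the FoxO3 4OHT pair KRABD1-AS1 reversed to -0.76 and APOH to -0.98. The number of arrays limits precision, and dim genes have only a bound at the floor.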

Other observations

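Some homeobox genes of the HOXB, HOXC and HOXD clusters differed between the lines. They were picked after their values were seen, and members not called are not counted here. Of all genes tested 51.4% were called. The HOXA cluster is not described. In the HOXB cluster the genes called were all higher in UMRC2, with HOXB2 at 5.54, 5.21 and 5.34 in RCC4 and 11.17, 11.38 and 11.31 in UMRC2, HOXB7 at 6.15, 7.15 and 6.54 against 11.30, 11.47 and 11.29 and HOXB6 at 4.49, 5.20 and 4.20 against 8.34, 8.43 and 8.26; HOXB3 (-1.95 ± 0.11), HOXB5 (-1.26 ± 0.21) and HOXB8 (-1.56 ± 0.49) lay the same way. In the HOXC cluster HOXC6, at 5.29, 5.58 and 4.39 against 10.54, 10.76 and 10.62, HOXC9 (-2.67 ± 0.54), HOXC10 (-4.73 ± 0.16) and HOXC4 (-1.44 ± 0.15) were higher in UMRC2. HOXD13 (2.25 ± 0.32) was higher in RCC4, as were HOXD10 and HOXD11, while HOXD4 (-1.65 ± 0.13) was higher in UMRC2.

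Some genes were at the floor on all 3 vehicle arrays of one line and above the array median on all 3 of the other. The line above the median was RCC4 for 23 of them and UMRC2 for 44, of which 8 and 22 showed the same on the 4OHT arrays. AMBP, LEF1 and CYBRD1 are among the former and CD9, BST2, KRT19 and LOXL1 among the latter. Windows of 15 neighbouring tested genes, chosen by value and not tested, had medians between -0.48 and 0.55 from the 5th to the 95th percentile. The window from VESTAR to TMEM121 had a median of 1.40, with 11 of 15 genes 2-fold higher in RCC4, and 1.20 with 4OHT. That from ZNF618 to BRINP1, which holds AMBP, had 1.24 with 9 of 15. That from BSDC1 to PHC2 had -1.47, with 12 of 15 genes 2-fold higher in UMRC2, and -1.51 with 4OHT.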
